A study of Mus musculus with 28 samples.

Results

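The genes described here are the nuclear-encoded subunits of the mitochondrial respiratory chain and ATP synthase, taken as the probe sets with a single gene symbol beginning Ndufa, Ndufb, Ndufc, Ndufs, Ndufv, Uqcr, Cox4 to Cox8, Atp5 or Sdha to Sdhd, without the Ndufaf assembly factors. They are 79 of the 12393 genes measured. Each was placed in a complex by the prefix of its symbol alone, with 34 in complex I, 4 in complex II, 8 in complex III, 16 in complex IV and 17 in complex V. Results by complex are thus results by name. The 79 genes have 150 probe sets, 44 of them have more than 1, and of several the one with the greatest average signal across the 28 arrays stands for its gene.

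Sorted mouse T cells of C57BL/6N background were studied, CD8 cells with the OT1 receptor transgene and CD4 cells with the AND receptor transgene, so that a CD8 minus CD4 difference cannot tell lineage apart from receptor and antigen. All cells spent 2 days in culture with interleukin 7 at 5 ng/ml, either on anti-CD3 and anti-CD28 antibodies bound to the plate at 10 µg/ml (stimulated) or on bare plastic (unstimulated). The 12 arrays of day 2 hold 3 of stimulated and 3 of unstimulated cells of each type. The 16 arrays of day 5 hold cells that then spent 3 days in a host mouse. Stimulated cells moved to hosts that express their antigen (dtg-O or dtg-M hosts) are called continuous, stimulated cells moved to hosts without the antigen are called transient, and unstimulated cells of day 5 went from bare plastic into hosts without the antigen. There were 3 arrays of each group, except CD4 transient and CD4 unstimulated with 2 each. Cells were sorted to over 99% purity.

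The respiratory chain sits in the inner mitochondrial membrane. Complex I takes electrons from NADH and complex II, the succinate dehydrogenase that is also an enzyme of the citric acid cycle, takes them from succinate. Ubiquinone carries them to complex III, cytochrome c carries them on to complex IV, which reduces oxygen, and complex V uses the proton gradient so built to make ATP. Resting T cells rely largely on oxidative metabolism, and activated T cells enlarge both glycolysis and their mitochondria as they grow and divide. Several subunits of complex IV come as a common form and a form typical of heart and skeletal muscle, among them Cox6a1 and Cox6a2, Cox7a2 and Cox7a1, and Cox8a and Cox8b.

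The values are log2 signals per probe set, so they compare groups for 1 gene and do not rank genes by abundance. A difference is a difference of group means on that log2 scale, given with its standard error, and a gene is called where limma's adjusted p over all 12393 genes is below 0.05. In bulk RNA, fewer cells of a type and less RNA per cell cannot be told apart. The third unstimulated arrays of day 2 stood apart, with medians of 4.97 (CD8) and 4.83 (CD4) against 6.29 to 6.53 on the other 10 arrays of that day. On the same arrays the lineage markers went against the labels. The mean of 3 CD8 markers was 5.54 on the array labelled CD8 and 8.55 on the one labelled CD4, and the mean of 3 CD4 helper markers was 6.40 on the array labelled CD8 and 5.07 on the one labelled CD4. Day 2 counts are therefore given with and without both arrays. The beta-actin 3′ minus 5′ difference, which is larger where transcripts are shortened, ranged on day 2 between 1.11 and 1.69 in the stimulated arrays and between 2.28 and 4.30 in the unstimulated ones. On day 5 it was 0.31 to 0.62 in continuous cells of both types, 0.66 to 1.02 in CD8 transient and 1.92 to 2.44 in CD8 unstimulated cells, and 2.42 to 2.73 in CD4 transient and 0.67 to 0.98 in CD4 unstimulated cells. The mean of 9 B cell markers was 8.22 to 9.23 in CD4 transient cells, 5.77 to 6.39 in CD4 unstimulated and 5.65 to 5.73 in CD4 continuous cells. In the day 5 CD8 arrays the CD8 markers averaged 10.14 to 10.65, and in the CD4 arrays 5.61 to 5.90. The CD4 helper markers averaged 7.91 to 8.03 in CD4 continuous, 7.01 and 7.04 in CD4 transient and 8.02 and 8.27 in CD4 unstimulated cells, beside 6.20 to 6.90 on the CD8 arrays. The mean of 10 myeloid markers varied within groups, with 9.86 on the first CD8 unstimulated array beside 5.09 and 6.38, 7.59 on the first CD8 transient array beside 5.18 and 6.45, 9.75 on the second CD4 transient array beside 6.94, 8.04 on the first CD4 unstimulated array beside 5.80, and 8.04 on the first CD4 continuous array beside 5.19 and 5.84. On the first CD8 continuous array it was 6.91, beside 5.41 and 5.80. The first array was thus the highest in each day 5 group other than CD4 transient. The B cell markers were at 7.77 on the first CD8 unstimulated array, beside 6.05 and 6.51 on the others. The part of such cells in the members' values was not tested.

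Over the 10 groups the members moved to different extents by complex. The span between a gene's lowest and highest group mean had a median of 2.10 in complex II, 1.72 in complex III, 1.44 in complex I, 1.12 in complex V and 0.90 in complex IV. These spans include the day 2 unstimulated means, which hold the third arrays set apart above. All 4 complex II genes had their lowest mean there. Over the day 5 groups their spans were 0.26 (Sdha), 0.69 (Sdhc), 0.95 (Sdhb) and 2.23 (Sdhd). The order of the complexes was not shown to hold without those arrays. Across the 6 day 5 groups the smallest spans were those of Cox4i2 (0.20), Cox8b (0.22), Sdha (0.26), the flavoprotein of complex II, Cox6a1 (0.28), Ndufb11 (0.29) and Cox4i1 (0.34), the common form of the regulatory subunit 4. The signals of Cox4i2 (group means of 6.01 to 6.21) and Cox8b (5.59 to 5.81) were low and that of Cox6a1 (14.10 to 14.38) was near the top of the scale. The widest spans of day 5 were those of Ndufs4 (2.71), an accessory subunit of the matrix arm of complex I, Sdhd (2.23), which anchors complex II in the membrane, Uqcrc1 (2.08), a core protein of complex III, and Atp5b (1.97), the catalytic beta subunit of ATP synthase.

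**Figure D1:**
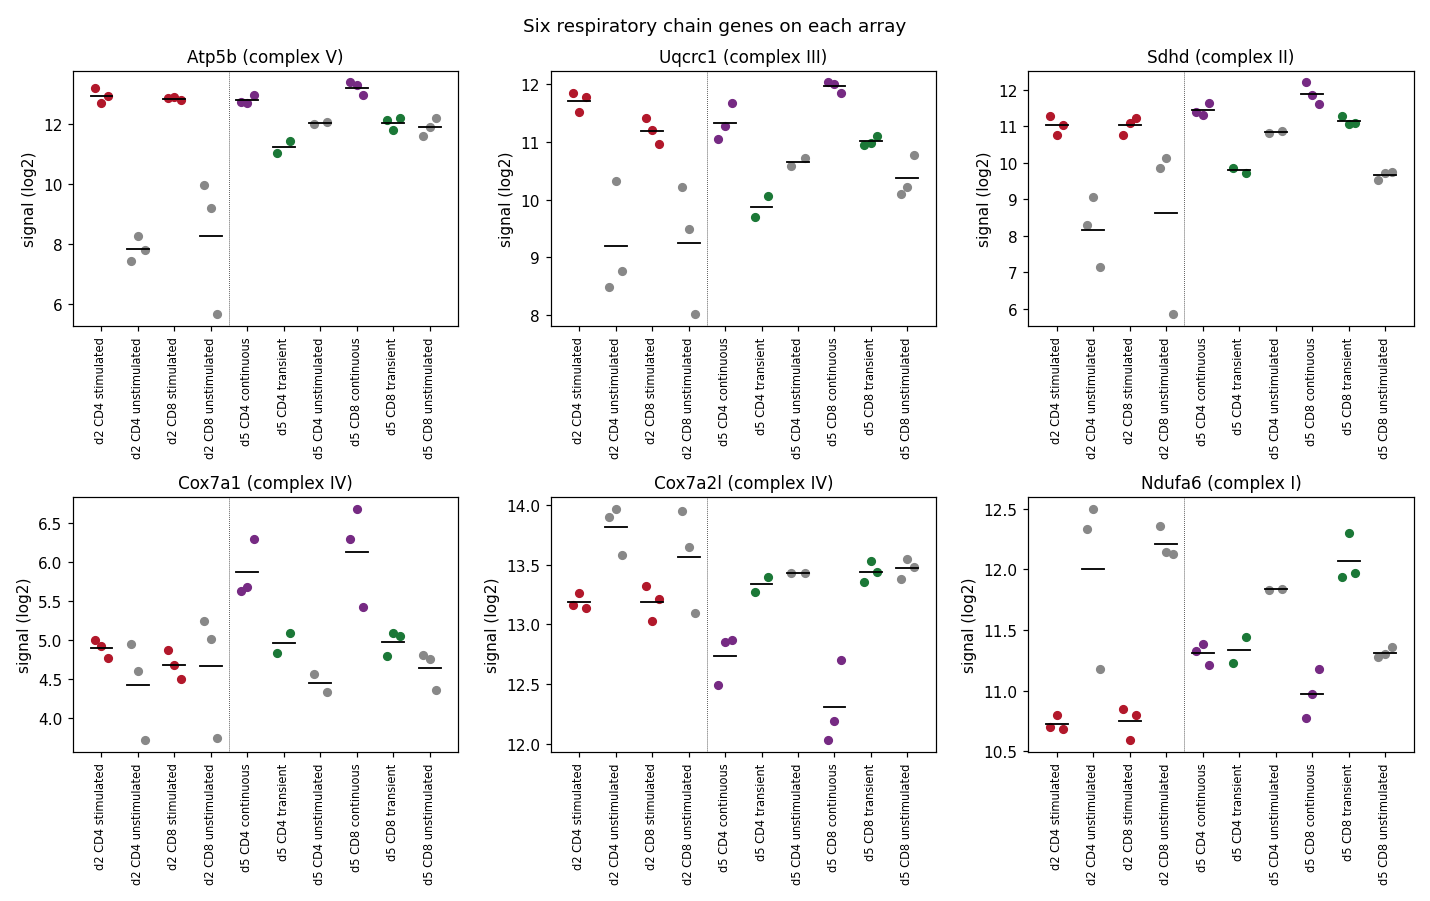
Log2 signal of 6 respiratory chain genes on each of the 28 arrays, by group, with d2 for day 2 and d5 for day 5. Points are arrays, horizontal bars are group means and the dotted line parts the days. Continuous cells of both types lie above unstimulated cells of day 5 for Atp5b, Uqcrc1, Sdhd and Cox7a1 and below them for Cox7a2l and Ndufa6.

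Continuous antigen was compared first with its withdrawal in CD8 cells. Of the 79 members, 16 were higher and 11 lower in CD8 continuous than in CD8 transient cells, or 34.2%, beside 27.2% of all genes called (13.6% higher and 13.6% lower). The members' median difference was 0.05 and that of all genes -0.05. Median centring gave 11 higher and 12 lower. The complexes differed in their balance, with 6 higher and 7 lower in complex I, 2 and 0 in complex II, 4 and 1 in complex III, 2 and 1 in complex IV, and 2 and 2 in complex V.

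The called rises included the beta subunit of ATP synthase and core parts of complexes II and III. Atp5b had a log2 signal of 13.39, 13.29 and 12.96 in CD8 continuous cells, against 12.14, 11.79 and 12.22 in CD8 transient cells. The groups did not overlap, and the difference of 1.16 ± 0.174 is a 2.23-fold change in signal (adjusted p = 0.000318, limma). Uqcrc1 had 12.03, 12.01 and 11.84 in continuous cells, against 10.95, 10.99 and 11.11 in transient cells (0.94 ± 0.183, adjusted p = 0.00171, limma). Here too each continuous array lay above each transient one, and the same held for both succinate dehydrogenase subunits that were called. Sdhb, the iron-sulfur subunit, had 13.03, 12.86 and 12.61 in continuous and 12.07, 12.19 and 12.16 in transient cells (0.69 ± 0.140, adjusted p = 0.00218), and Sdhd had 12.20, 11.85 and 11.61 in continuous and 11.29, 11.05 and 11.08 in transient cells (0.74 ± 0.144, adjusted p = 0.00166). Sdha differed by 0.21 (adjusted p = 0.0900) and was not called.

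Cox7a1, the muscle-type form of subunit 7a of complex IV, had 6.30, 6.69 and 5.42 in CD8 continuous and 4.80, 5.09 and 5.05 in CD8 transient cells, a difference of 1.16 ± 0.269 at low signal (adjusted p = 0.00551, limma). Cox7a2, its common form, differed by 0.27 (adjusted p = 0.0389) with 13.49, 13.56 and 13.58 in continuous and 13.14, 13.40 and 13.27 in transient cells, and Cox4i1 by -0.09 (adjusted p = 0.506), which was not called. The other named rises were Uqcrc2 (0.51), the other core protein of complex III, Uqcrfs1 (0.39), its Rieske iron-sulfur protein, Ndufs1 (0.52) and Ndufv1 (0.29), core subunits of the NADH-oxidizing module of complex I, and the accessory subunit Ndufb1 (0.62). Ndufab1, the mitochondrial acyl carrier protein that is also part of complex I, was higher by 0.94 with its highest probe set, and the mean of its probe sets gave 0.13 with no call. The mean of probe sets also ended the calls of Uqcrc2, with 0.29, and Cox7a2, with 0.21.

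The falls were led by Cox7a2l and Ndufa6. Cox7a2l, grouped here with complex IV, had 12.03, 12.19 and 12.70 in CD8 continuous cells, against 13.36, 13.53 and 13.44 in CD8 transient cells. The difference was -1.14 ± 0.154 (adjusted p = 0.000154, limma). Ndufa6, an accessory subunit of complex I, had 10.77, 10.97 and 11.18 in continuous and 11.94, 12.30 and 11.97 in transient cells (-1.10 ± 0.124, adjusted p = 4.41e-05, limma). In both genes each continuous array lay below each transient one. Uqcrh, the hinge protein of complex III, differed by -0.40, and Atp5l, the membrane subunit g of ATP synthase, by -0.55, and both were called. The number of members called was 12 without the first CD8 continuous array and 16 without the second. Among the 17 calls named in this comparison, 10 held with each array left out in turn, among them Atp5b, Uqcrc1, Sdhb, Sdhd, Cox7a1, Cox7a2l and Ndufa6.

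Other core and isoform members showed smaller differences in CD8 cells. In complex V, Atp5g3, a gene for the c subunit, was called at 0.28 (adjusted p = 0.0330, limma), and 5 of the 6 fits that left out an array ended the call. Atp5a1, the alpha subunit (0.25), was not called, and another of its probe sets was called lower. Atp5c1, the gamma subunit (0.30), was not called, and with the mean of its probe sets it was called at -0.61. Atp5g2, another c subunit gene (-0.21), was not called. Ndufa9 (0.33), Ndufb8 (0.30) and Ndufa4 (0.28) of the complex I names, Sdhc (0.16), and Cox6a1 (0.22) and Cox8a (-0.20) of complex IV were not called either.

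The CD4 continuous and CD4 unstimulated arrays enter none of the group means of that comparison. Of the 79 members, 10 were higher and 2 lower in CD4 continuous than in CD4 unstimulated cells. These 15.2% stand beside 20.7% of all genes called (9.92% higher and 10.8% lower), so the called share of the members was not above that of all genes. The sign was less even, with 59 of 79 members above 0 against 47.0% of all genes, and the median difference was 0.19 for the members and -0.02 for all genes. By complex, 2 were higher and 1 lower in complex I, 2 and 0 in complex II, 2 and 0 in complex III, 3 and 1 in complex IV, and 1 and 0 in complex V.

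The rises named in CD8 cells recur for 6 genes. Atp5b had 12.75, 12.71 and 12.96 in CD4 continuous and 11.99 and 12.07 in CD4 unstimulated cells (0.77 ± 0.195, adjusted p = 0.0119, limma). Uqcrc1 had 11.05, 11.28 and 11.67 in continuous and 10.59 and 10.73 in unstimulated cells (0.68 ± 0.205, adjusted p = 0.0317). For both genes all 3 continuous arrays lay above both unstimulated arrays. Sdhb had 12.18, 12.59 and 12.63 in continuous and 11.82 and 11.94 in unstimulated cells (0.59, adjusted p = 0.0162), and Sdhd had 11.39, 11.31 and 11.63 in continuous and 10.81 and 10.87 in unstimulated cells (0.61, adjusted p = 0.0155). Cox7a1 had 5.63, 5.68 and 6.30 in continuous and 4.56 and 4.33 in unstimulated cells (1.42 ± 0.30, adjusted p = 0.00423), at low signal in both groups. Ndufb1 had 6.79, 6.57 and 6.64 in continuous and 6.21 and 6.03 in unstimulated cells (0.55, adjusted p = 0.0428). These signals lay below the medians of all genes on those arrays (6.90 to 6.94).

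Both called falls were the genes that led the falls in CD8 cells. Cox7a2l had 12.49, 12.85 and 12.87 in CD4 continuous and 13.43 and 13.43 in CD4 unstimulated cells (-0.69 ± 0.172, adjusted p = 0.0111, limma), and Ndufa6 had 11.33, 11.38 and 11.21 in continuous and 11.83 and 11.84 in unstimulated cells (-0.53 ± 0.139, adjusted p = 0.0145). The remaining rises were Cox5a (0.41) and Cox5b (0.52), the subunits 5 of complex IV, Uqcrq (0.47), which binds ubiquinone in complex III, and Ndufc1 (0.58) of complex I. These calls rest on few arrays. The count of members called was 4 without the first CD4 unstimulated array, 1 without the second, and 7 without the third CD4 continuous array. Of the 12 calls, that of Cox5b alone held with each array left out in turn. Ndufb1 and Uqcrq lost theirs in each of the 5 fits, Uqcrc1 and Sdhb in 4, and Sdhd in 3. Atp5b, Cox7a2l, Ndufa6 and Ndufc1 lost theirs in 2, and Cox7a1 and Cox5a in 1. In these fits Ndufb1 differed by 0.455 to 0.638, Uqcrc1 by 0.506 to 0.817 and Sdhb by 0.505 to 0.73. The mean of probe sets ended the calls of Sdhd (0.48), Ndufc1 (0.54) and Uqcrq (0.24).

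Uncalled members of the same core set included Ndufa9, with 12.74, 12.10 and 12.34 in CD4 continuous and 11.78 and 11.76 in CD4 unstimulated cells, a difference of 0.62 (adjusted p = 0.0618, limma). Atp5a1 differed by 0.36 (adjusted p = 0.108), Atp5c1 by 0.22, Atp5g3 by 0.20 and Atp5g2 by -0.31. In complex IV the common forms Cox6a1 (0.24) and Cox8a (0.31) were not called, and neither were Sdha (0.17) and Sdhc (0.26) of complex II. The mean of the 2 natural killer markers measured was 7.56 to 8.05 on the CD4 continuous and 5.14 to 5.36 on the CD4 unstimulated arrays. Their summed linear signals (1546 to 2916 against 82.5 and 95.3) place nearly all of that rise in 1 of the 2 markers. That mean therefore does not show a rise of both. In CD8 cells it was 6.34 to 8.78 on the continuous and 6.84 to 7.88 on the transient arrays. The part of natural killer cells in the members' values was not tested.

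The 2 comparisons set side by side share no array and have unlike references, transient cells for CD8 and unstimulated cells for CD4. Pairs of comparisons with like references share no array either. Both come from the same model of the 16 day 5 arrays with a shared variance per gene, so their calls are not independent. Of the 10 members higher in CD4 continuous cells against unstimulated, 6 were also higher in CD8 continuous cells against transient (60% of the CD4 list and 6 of 16 of the CD8 list), and among all genes 56.3% of the CD4 rises were CD8 rises. Of the 2 members lower in CD4 cells, both were among the 11 lower in CD8 cells, beside 52.6% for all genes. Across the 79 members the differences correlated at r = 0.74 and across the 12393 genes at r = 0.64, where genes are not independent replicates. For the rises, the share found in both cell types was close to that of all genes. Against CD4 transient cells, at 11.23 and 11.44 for Ndufa6, 6.87 and 6.33 for Ndufb1 and 12.41 and 12.12 for Sdhb, the CD4 continuous arrays overlapped. For Atp5b, Uqcrc1, Sdhd, Cox7a1 and Cox7a2l they did not overlap there. In CD8 unstimulated cells Ndufa6 was 11.28 to 11.36, nearer the continuous than the transient arrays. Both comparisons also had an actin 3′ minus 5′ difference without overlap, at 0.31 to 0.56 in CD8 continuous and 0.66 to 1.02 in CD8 transient cells, and at 0.40 to 0.62 in CD4 continuous and 0.67 to 0.98 in CD4 unstimulated cells, and its part in the recurrence was not tested.

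**Figure D2:**
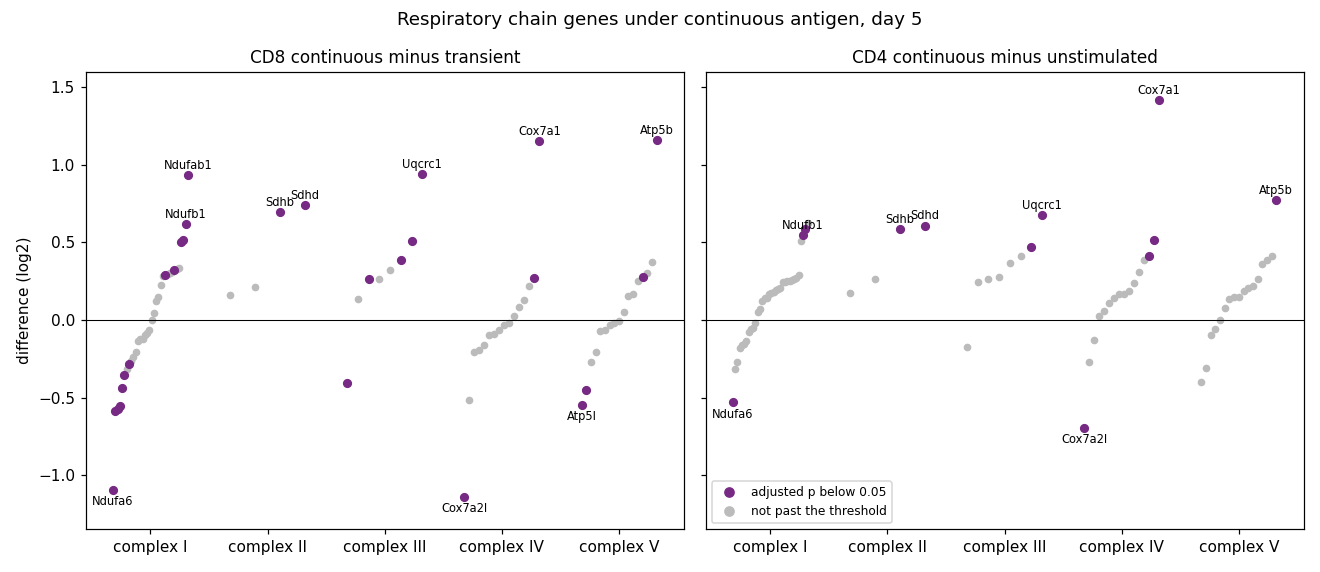
Log2 difference of each of the 79 genes by complex, in CD8 cells (continuous minus transient, left) and CD4 cells (continuous minus unstimulated, right). Points are genes, purple where the adjusted p is below 0.05 and grey otherwise. Atp5b, Uqcrc1, Sdhb, Sdhd, Cox7a1 and Ndufb1 are above 0 and Cox7a2l and Ndufa6 below 0 on both sides.

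The promoters of these 8 genes are shown to let the genes called in both comparisons be compared at the level of sequence. RefSeq's GRCm38.p6 table gave a window of 250 bases before the gene start for 65 of the 79 members and for 27025 genes, and it was searched on both strands for 3 motifs, whose letters do not contain one another. A gene counted as matched if any of its windows held the motif. The 27025 genes are those of the RefSeq table, not the 12393 measured here. The NRF1 motif, GCGC followed by any base and TGCGC, was matched in 10 of the 65 members (15.38%) and in 4.23% of the 27025 genes. The GABP motif CCGGAAG was matched in 12 (18.46%) and in 7.83% of all. The CCAAT box was matched in 26 (40%) and in 37.49% of all. NRF1 and GABP are known regulators of genes for mitochondrial proteins, the CCAAT box is a common promoter element, and a match is a stretch of letters, not a site in use. In the sequences capitals mark matches on either strand. Of the 8 windows 6 are printed, and those of Uqcrc1 and Ndufb1 hold no match. Atp5b lies at chr10:128083057-128083306 on the plus strand with 5 CCAAT boxes, Sdhb at chr4:140961021-140961270 on the plus strand with 1 CCAAT box, Sdhd at chr9:50603850-50604099 on the minus strand with 1 NRF1 and 1 GABP match, Cox7a1 at chr7:30183921-30184170 on the plus strand with 2 CCAAT boxes, Ndufa6 at chr15:82354292-82354541 on the minus strand with 1 CCAAT box, and Cox7a2l at chr17:83514334-83514583 on the minus strand with no match.
Atp5b: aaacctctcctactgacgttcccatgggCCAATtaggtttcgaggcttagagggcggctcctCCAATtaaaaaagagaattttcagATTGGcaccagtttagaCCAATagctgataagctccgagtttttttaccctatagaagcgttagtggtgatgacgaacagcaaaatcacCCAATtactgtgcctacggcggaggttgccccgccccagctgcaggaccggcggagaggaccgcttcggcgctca
Sdhb: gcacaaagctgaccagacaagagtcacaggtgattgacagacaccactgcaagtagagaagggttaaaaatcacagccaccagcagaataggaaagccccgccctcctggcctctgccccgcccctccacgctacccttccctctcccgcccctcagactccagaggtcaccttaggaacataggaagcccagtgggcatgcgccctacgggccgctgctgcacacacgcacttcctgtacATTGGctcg
Sdhd: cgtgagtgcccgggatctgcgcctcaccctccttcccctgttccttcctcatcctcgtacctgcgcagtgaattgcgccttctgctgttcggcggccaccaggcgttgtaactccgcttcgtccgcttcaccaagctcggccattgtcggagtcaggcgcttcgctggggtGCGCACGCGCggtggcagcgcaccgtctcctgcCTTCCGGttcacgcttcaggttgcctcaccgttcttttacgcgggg
Cox7a1: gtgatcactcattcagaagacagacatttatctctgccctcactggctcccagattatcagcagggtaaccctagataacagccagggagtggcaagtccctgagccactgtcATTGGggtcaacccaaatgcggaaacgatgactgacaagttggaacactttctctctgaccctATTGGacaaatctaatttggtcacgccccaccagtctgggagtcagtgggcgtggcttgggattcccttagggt
Ndufa6: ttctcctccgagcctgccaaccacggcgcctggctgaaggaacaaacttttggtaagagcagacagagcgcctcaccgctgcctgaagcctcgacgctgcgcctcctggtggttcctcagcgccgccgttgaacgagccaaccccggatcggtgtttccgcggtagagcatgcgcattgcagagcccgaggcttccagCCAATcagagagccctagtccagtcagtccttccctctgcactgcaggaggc
Cox7a2l: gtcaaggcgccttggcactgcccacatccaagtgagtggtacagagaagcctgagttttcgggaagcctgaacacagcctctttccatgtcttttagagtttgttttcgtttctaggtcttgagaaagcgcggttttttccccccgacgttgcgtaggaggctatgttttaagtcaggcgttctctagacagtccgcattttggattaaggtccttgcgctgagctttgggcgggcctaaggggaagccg

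The genes called higher in both comparisons had no one of these motifs in common. Atp5b has CCAAT boxes and neither other motif, Sdhd has the NRF1 and GABP matches and no CCAAT box, and Uqcrc1 and Ndufb1 have none of the 3. Cox7a2l and Ndufa6, called lower in both, differ in the same way, as the first has none and the second has 1 CCAAT box.

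Transient stimulation, set against no stimulation, left opposite patterns in the 2 cell types. In CD8 cells 30 members were higher and 8 lower in transient than in unstimulated cells, or 48.1%, beside 31.8% of all genes called (16.3% higher and 15.5% lower), and the members' median difference was 0.17 against -0.08 for all genes. In CD4 cells 8 were higher and 18 lower, or 32.9%, beside 22.8% of all genes called (9.66% higher and 13.1% lower), and the median was -0.09 against 0.04. Quantile normalization gave 11 higher and 15 lower in CD4 cells. The CD4 count was 16 without the first CD4 unstimulated array and likewise 16 without the first CD4 transient array. By complex, CD8 cells had 12 higher and 3 lower in complex I, 4 and 2 in complex III and 9 and 1 in complex V, and CD4 cells had 4 higher and 7 lower in complex I, 2 and 4 in complex III and 1 and 4 in complex V.

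Ndufs4 had 11.26, 11.43 and 11.24 in CD8 transient cells, against 8.80, 8.88 and 8.80 in CD8 unstimulated cells, a difference of 2.48 ± 0.209 (adjusted p = 2.32e-06, limma). In CD4 cells it had 8.29 and 9.32 in transient cells, against 11.45 and 11.18 in unstimulated cells, a difference of -2.51 ± 0.257 (adjusted p = 2.88e-05). No arrays overlapped in either cell type, and the order of the groups was turned round. Atp5j, coupling factor 6 of ATP synthase, had 12.73, 12.81 and 12.82 in CD8 transient and 11.34, 11.55 and 11.69 in CD8 unstimulated cells (1.26). In CD4 cells it had 11.54 and 11.61 in transient and 12.95 and 12.69 in unstimulated cells (-1.25). Cox6c, a small subunit of complex IV, had 12.54, 12.85 and 12.70 in CD8 transient and 11.60, 11.43 and 11.44 in CD8 unstimulated cells (1.21). In CD4 cells it had 11.61 and 11.44 in transient and 12.41 and 12.23 in unstimulated cells (-0.79), and with the mean of its probe sets that CD4 call ended at -0.24. All 6 differences in this paragraph were called, with groups that did not overlap.

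The same opposition held for members of complexes I, II and III. Ndufb6 differed by 1.28 in CD8 and -1.26 in CD4 cells, Sdhd by 1.48 and -1.04, Uqcr11, a small subunit of complex III, by 1.06 and -0.88, and Uqcrc1 by 0.65 and -0.78, and all 8 differences were called. Another probe set of Sdhd was called the other way in CD8 cells, and the mean of its probe sets gave -0.26 in CD4 cells, with no call. Atp5b was called in CD4 cells (-0.79, adjusted p = 0.0166, limma) and not in CD8 cells (0.15, adjusted p = 0.558). In CD4 cells the calls of Atp5b and Uqcrc1 each ended in 3 of the 4 fits that left out an array, at adjusted p-values of 0.0645 to 0.163, and that of Uqcr11 in 2, at 0.0501 and 0.0613. In CD8 cells that of Uqcrc1 ended in 3 of 6 fits, at 0.0544 to 0.0610.

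A smaller number of members ran the other way. Ndufa12 had 11.68, 12.04 and 11.69 in CD8 transient cells, against 12.92, 12.65 and 12.77 in CD8 unstimulated cells (-0.98), and 12.76 and 12.60 in CD4 transient cells, against 11.55 and 11.51 in CD4 unstimulated cells (1.16). Another probe set of Ndufa12 was called the other way in CD4 cells. Cox6b1, the common subunit 6b of complex IV, had 12.73, 13.10 and 12.66 in CD8 transient and 13.38, 13.54 and 13.69 in CD8 unstimulated cells (-0.71), and 13.54 and 13.79 in CD4 transient and 12.48 and 12.32 in CD4 unstimulated cells (1.27). Uqcr10, the small subunit 10 of complex III, differed by -0.54 in CD8 and 0.94 in CD4 cells, and both calls ended with the mean of probe sets, at -0.73 and 0.56. Its CD8 call also ended in 4 of 6 fits that left out an array, at adjusted p-values of 0.0548 to 0.0785.

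Of the 18 members lower in CD4 transient cells, 17 were higher in CD8 transient cells (94.4% of the 18 and 17 of 30 of the CD8 rises), beside 68.4% for all genes. Of the 8 higher in CD4 cells, 6 were lower in CD8 cells (75%), beside 50.5%. In 65 of the 79 members, and in 8718 of the 12393 genes, the differences had opposite signs, and they correlated at r = -0.89 across members and -0.52 across all genes. The beta-actin 3′ minus 5′ measure also reversed its order between the cell types, at 0.66 to 1.02 in CD8 transient and 1.92 to 2.44 in CD8 unstimulated cells, and 2.42 to 2.73 in CD4 transient and 0.67 to 0.98 in CD4 unstimulated cells. Of 9 B cell markers 5 were called higher and none lower in CD4 transient against unstimulated cells, and none was called in CD8 cells. The CD4 helper markers were lower in CD4 transient (7.01 and 7.04) than in CD4 unstimulated cells (8.02 and 8.27), with 2 of 3 called. The part of transcript shortening and of other cells in these results was not tested.

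**Figure D3:**
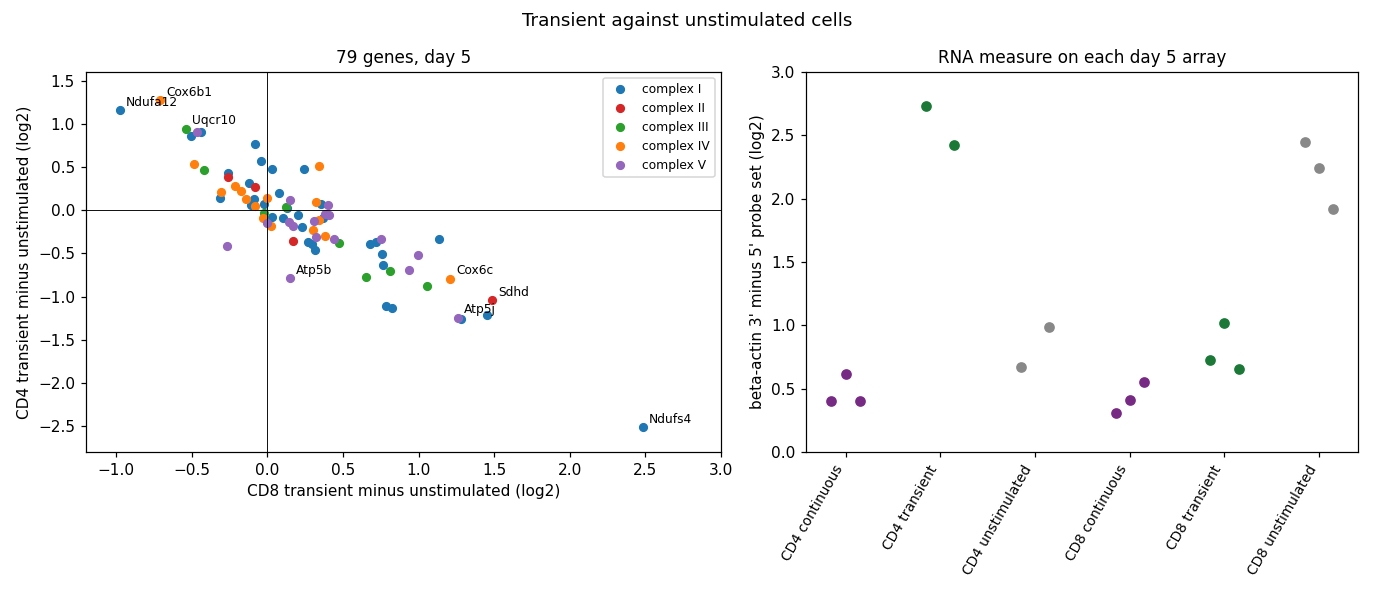
Left, log2 difference between transient and unstimulated cells on day 5 for the 79 genes, CD8 on the horizontal and CD4 on the vertical axis, coloured by complex. Right, the beta-actin 3′ minus 5′ difference (log2) on each of the 16 day 5 arrays by group. Ndufs4, Sdhd, Atp5j and Cox6c lie low on the right of the left panel, and CD4 transient and CD8 unstimulated arrays lie highest in the right panel.

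The difference of both responses, CD8 minus CD4, was called for 39 members, 27 higher and 12 lower, or 49.4%, beside 37.5% of all genes (18.5% higher and 18.9% lower). Ndufs4 differed by 4.99 ± 0.331 (adjusted p = 2.08e-07, limma), and Atp5j (2.51) and Uqcr11 (1.94) were also higher. On the other side were Ndufa12 (-2.13), Cox6b1 (-1.98), Uqcr10 (-1.48) and, in complex II, Sdhb (-0.64). The call of Uqcr10 ended with the mean of probe sets at -1.29, and that of Sdhb in 6 of the 10 fits that left out an array, at adjusted p-values of 0.0542 to 0.144.

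The remaining comparisons with those groups share arrays with the ones above, so their values are given as measured. In CD4 continuous against CD4 transient cells 32 members were higher and 10 lower, or 53.2%, beside 34.1% of all genes (17.6% higher and 16.5% lower), with medians of 0.20 for members and -0.06 for all genes. Quantile normalization gave 24 higher and 14 lower. Uqcrc1 was 11.05 to 11.67 in continuous and 9.70 to 10.06 in transient cells (1.45), Atp5b was 12.71 to 12.96 in continuous and 11.03 to 11.44 in transient cells (1.56), and Sdhd was 11.31 to 11.63 in continuous and 9.73 to 9.86 in transient cells (1.65). Ndufs4 (2.70), Atp5j (1.66) and Cox7a1 (0.91) were also called higher, and Ndufa12 (-1.01), Cox6b1 (-0.88), Cox7a2l (-0.60) and Uqcr10 (-0.57) lower. All 9 B cell markers were called lower in the continuous cells, and their part in these results was not tested. The calls of Uqcr10 and Cox7a2l ended with the mean of probe sets, at -0.44 and -0.52. Of the 5 fits that left out an array, 3 ended the call of Cox7a1, 3 that of Uqcr10 and 2 that of Cox7a2l, at adjusted p-values of 0.0580 to 0.199.

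In CD8 continuous against CD8 unstimulated cells 36 members were higher and 14 lower, or 63.3%, beside 47.3% of all genes (21.4% higher and 25.9% lower), and the medians were 0.25 and -0.12. All 9 calls named here held with each array left out in turn. Sdhd was 11.61 to 12.20 in continuous and 9.52 to 9.74 in unstimulated cells (2.23 ± 0.144, adjusted p = 1.3e-07, limma), Uqcrc1 was 11.84 to 12.03 in continuous and 10.10 to 10.78 in unstimulated cells (1.6), and Atp5b was 12.96 to 13.39 in continuous and 11.61 to 12.21 in unstimulated cells (1.31). Ndufs4 (2.40), Cox7a1 (1.5), Atp5j (1.42) and Ndufab1 (1.23) were called higher as well. Cox7a2l (-1.17) and Ndufa2 (-0.68), an accessory subunit of complex I, were called lower. The actin 3′ minus 5′ difference was 0.31 to 0.56 in the continuous and 1.92 to 2.44 in the unstimulated cells, and its part was not tested.

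How far the cell types differ under each condition was read from CD8 minus CD4 levels. Between continuous cells 8 members were higher in CD8 and none was lower, or 10.1%, beside 11.2% of all genes (6.58% higher and 4.62% lower), so the share of members called was near that of all genes. The 8 were Ndufab1 (0.85), Ndufa10 (0.77), Ndufa12 (0.63), Ndufb1 (0.61), Ndufa5 (0.53) and Ndufv1 (0.39) of complex I, Uqcrc1 (0.63) of complex III and Atp5g1 (0.74), a gene for the c subunit of the ATP synthase rotor. The count was 2 without the first CD8 continuous array, 5 without the second, 3 without the first CD4 continuous array and 5 without the third. Ndufab1 and Ndufa10 were the calls that held with each array left out in turn, and the mean of probe sets ended those of Ndufab1 (0.36) and Ndufa5 (0.43).

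Between transient cells 36 members were higher and 4 lower in CD8, or 50.6%, beside 27.1% of all genes (15.4% higher and 11.7% lower). Complex V contributed 11 higher and 1 lower of its 17 members. Ndufs4 (2.50), Uqcr11 (1.47), Sdhd (1.35), Atp5j (1.21) and Cox6c (1.18) were higher in CD8 transient cells and Ndufa12 (-0.88), Cox6b1 (-0.84) and Uqcrb (-0.47) lower, and all 8 calls held with each array left out in turn. The mean of probe sets ended that of Uqcrb (-0.21). Between unstimulated cells the counts were even, 16 higher and 16 lower in CD8, or 40.5%, beside 28.7% of all genes (14.4% higher and 14.3% lower). There Ndufs4 (-2.49), Atp5j (-1.29), Cox6c (-0.83) and Uqcrfs1 (-0.58) were lower and Ndufa12 (1.25), Cox6b1 (1.14), Uqcr10 (0.99) and Sdhb (0.52) higher in CD8. The count was 19 without the first and 18 without the second CD4 unstimulated array. The mean of probe sets ended the calls of Uqcr10 (1.47) and Cox6c (-0.25) there. Leaving out an array ended the call of Sdhb in 3 of 5 fits, at adjusted p-values of 0.0697 to 0.145, and that of Uqcrfs1 in 1, at 0.0543. The actin measure differed between the cell types in both conditions, as given above, and its part was not tested.

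The response to antigen, continuous minus transient, differed between CD8 and CD4 cells in 26 members, 6 higher and 20 lower in CD8, or 32.9%, beside 18.9% of all genes (8.13% higher and 10.7% lower). Quantile normalization gave 9 higher and 18 lower. Ndufs4 (-2.79), Atp5j (-1.51), Cox6c (-1.05), Uqcr11 (-1.03) and Sdhd (-0.91) had a lower difference in CD8 cells, and Ndufa12 (1.51), Uqcr10 (0.89) and Cox6b1 (0.85) had a higher difference in CD8 cells. The call of Sdhd ended with the mean of probe sets (-0.24), as did that of Uqcr10 (1.22), which also ended in 1 of 11 fits that left out an array (adjusted p = 0.0956). The count was 16 without the first CD4 transient array. For Atp5b (-0.41, adjusted p = 0.340), Uqcrc1 (-0.51, adjusted p = 0.239), Cox7a1 (0.25, adjusted p = 0.755) and Cox7a2l (-0.54, adjusted p = 0.131) a difference of the responses was not called by limma.

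On day 2, before any transfer, few members were called. In CD8 cells 2 were higher and 5 lower in stimulated than in unstimulated cells, or 8.86%, beside 8.35% of all genes (7.49% higher and 0.863% lower). In CD4 cells 3 were higher and 3 lower, or 7.59%, beside 11.4% of all genes (10.7% higher and 0.718% lower). The CD8 share was near that of all genes and the CD4 share was below it. The balance in CD4 cells moved with the scaling, to 7 higher and 30 lower under quantile normalization and 11 higher and 21 lower under median centring, and in CD8 cells these gave 6 higher and 26 lower, and 8 higher and 19 lower. These scalings moved the median of all genes in CD4 cells to -0.18 and -0.24, and in CD8 cells to -0.18 and -0.25. The share of all genes called under them is not given here, so these counts alone do not set the members apart. The members' median was 0.06 in both cell types and that of all genes 0.14. On simulated data with the spread of these arrays the CD4 fit of day 2 called 0% of changes of 1 log2 unit and 71% of changes of 3. Only 100 genes per size were changed there, while 1409 genes were called in the data. The adjusted threshold is looser where more genes change, so these shares give no exact limit for the data. At an unadjusted p below 0.05 there were 21 members in CD8 and 24 in CD4 cells, beside 2894 and 3100 of the 12393 genes.

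Atp5b showed the greatest rise among the members in both. It had 12.87, 12.89 and 12.79 in CD8 stimulated cells, against 9.96, 9.19 and 5.67 in CD8 unstimulated cells (4.57 ± 0.811, adjusted p = 0.00391, limma), and 13.21, 12.70 and 12.93 in CD4 stimulated cells, against 7.44, 8.26 and 7.81 in CD4 unstimulated cells (5.11 ± 0.811, adjusted p = 0.00164). Both calls held with each array left out in turn, and the stimulated arrays were close to one another while the unstimulated ones spread widely. Uqcrc1 had 11.84, 11.52 and 11.78 in CD4 stimulated and 8.49, 10.33 and 8.76 in CD4 unstimulated cells (2.52, adjusted p = 0.0147), and Ndufa9, an accessory subunit of complex I, was higher in CD4 stimulated cells by 1.99 (adjusted p = 0.0359). In CD8 cells Uqcrc1 differed by 1.95 (adjusted p = 0.0566) and was not called. Without the third unstimulated arrays Uqcrc1 was called in CD8 cells at 1.33 (adjusted p = 0.0479), and Atp5b was called at 3.27 in CD8 and 5.10 in CD4 cells. Ndufv3, Ndufa5 and Ndufa2 of complex I were lower in both cell types, by -1.67, -1.51 and -1.38 in CD8 cells and -1.52, -1.48 and -1.33 in CD4 cells. The mean of probe sets ended both calls of Ndufa5, at -1.05 and -0.77. Uqcrh (-1.72) and Ndufa6 (-1.46) were lower in CD8 cells. Each of these calls other than that of Atp5b ended in 3 to 6 of the 6 fits that left out an array, at adjusted p-values of 0.0512 to 0.185.

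With all arrays the complex II differences were above 0, with Sdha at 1.35 and 1.25, Sdhb at 0.72 and 1.22, Sdhc at 2.46 and 2.47 and Sdhd at 2.41 and 2.85 in CD8 and CD4 cells, and none of the 8 was called. The third CD8 unstimulated array was far below the others, for Sdhc at 4.32 beside 9.74 and 9.47. The median of its 4 members was 11.42 to 11.61 on the CD8 stimulated and 7.47 to 10.87 on the CD8 unstimulated arrays, and 11.39 to 11.63 on the CD4 stimulated and 8.88 to 10.25 on the CD4 unstimulated arrays. The stimulated arrays of both types lay above all unstimulated ones. The muscle-type Cox6a2 had 9.82, 10.06 and 9.90 in CD8 stimulated and 7.44, 7.54 and 6.79 in CD8 unstimulated cells (2.67 ± 0.502, adjusted p = 0.00567, limma). In CD4 cells it had 8.21, 7.86 and 8.81 in stimulated and 7.88, 7.79 and 6.15 in unstimulated cells (1.02, adjusted p = 0.232). On the 16 day 5 arrays Cox6a2 was between 6.27 and 7.32.

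The difference between the stimulation responses of CD8 and CD4 cells was called by limma for 0 members and for 0% of all genes, with 1 member and 70 genes at an unadjusted p below 0.05. Between CD8 and CD4 stimulated cells 0 members were called, beside 0.0242% of all genes, with 1 member and 147 genes at an unadjusted p below 0.05. The counts depended on the third unstimulated arrays. Without them 38 of the 79 members were called in CD8 cells, 11 higher and 27 lower, beside 37.9% of all genes (16.5% higher and 21.4% lower). In CD4 cells 51 were called, 19 higher and 32 lower, beside 65.7% of all genes (26.2% higher and 39.4% lower). The CD4 share of members called was near that of all genes, and the CD8 share was above it. All 4 subunits of complex II were then called in CD4 cells, with Sdha at 0.81, Sdhb at 0.90, Sdhc at 2.48 and Sdhd at 2.33, and Sdha (0.55) and Sdhd (1.03) in CD8 cells. Sdhb was then at 0.18 and Sdhc at 0.70 in CD8 cells, and neither was called. Cox6a2 was then called for the difference of the responses, at 1.97 (adjusted p = 0.0349, beside 2.49% of all genes), and, in a comparison chosen after seeing the data, between the stimulated cells, at 1.63 (adjusted p = 0.0132, beside 0.702%). Without the third CD4 unstimulated array alone the CD4 count was 24, and it was 1 without the first CD4 unstimulated array, 1 without the first CD4 stimulated array, 1 without the third and 2 without the second. The CD8 count was 4 without the first CD8 unstimulated array and 2 without any 1 of the stimulated arrays. The actin measure differed between stimulated and unstimulated arrays, and its part was not tested.

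**Figure D4:**
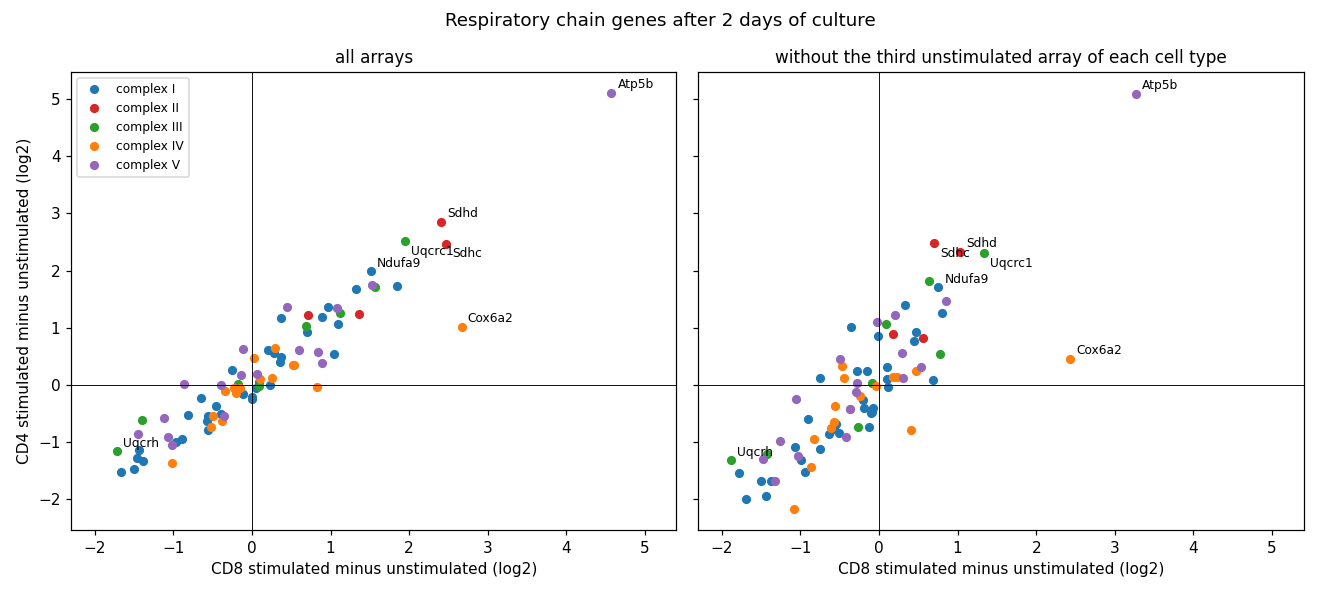
Log2 difference between stimulated and unstimulated cells after 2 days of culture for the 79 genes, CD8 on the horizontal and CD4 on the vertical axis, coloured by complex, with all arrays (left) and without the third unstimulated array of each cell type (right). Atp5b lies far above the rest in both panels, and Cox6a2 lies to the right of the other complex IV genes.

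The neighbouring pathway genes were read from lists of mitochondrial proteins outside the prefixes, and each count is to be read against the share of all genes called. In CD8 continuous against transient cells 29 of 74 genes of the mitochondrial ribosome were higher and 3 lower (43.2%, beside 27.2% of all genes), 8 of 21 import genes higher and 1 lower, 4 of 12 citric acid cycle genes higher and 0 lower, and 12 of 32 assembly factors higher and 7 lower. Of 8 electron carriers 5 were higher and 0 lower, among them Gpd2 (1.41), which passes electrons from glycerol 3-phosphate into the chain, and Cyc1 (0.69), the cytochrome c1 of complex III. Of 13 regulators 2 were higher and 1 lower, with Gabpb1, the beta subunit of the GABP factor, at 1.01 and Esrra at -0.72. In CD4 continuous against unstimulated cells 10 ribosome genes were higher and 4 lower (18.9%, not above the 20.7% of all genes), 2 import genes higher and 0 lower, 3 citric acid cycle genes higher and 0 lower, 3 electron carriers higher and 1 lower, 6 assembly factors higher and 2 lower, and 1 regulator higher (Gabpb1, 1.21) and 4 lower, among them Ppargc1b (-0.97). Idh3a and Fh1 of the citric acid cycle were called higher in both, at 1.11 and 1.19 in CD8 cells and 0.81 and 0.55 in CD4 cells. Between CD8 and CD4 continuous cells 26 of 74 ribosome genes were higher and 0 lower in CD8 (35.1%, beside 11.2% of all genes), with a median of 0.38 for that list, 0.10 for the 79 members and 0.00 for all genes.

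Across the 16 day 5 arrays the members varied together loosely. The median correlation of pairs of members was 0.22, and that of pairs among all genes 0.02. It was 0.47 within complex V, 0.45 between complexes II and III, 0.24 within complex I and 0.00 within complex IV. Complex IV includes forms of low signal, among them Cox7a1 (day 5 group means of 4.45 to 6.14), Cox6b2 (4.73 to 5.28), Cox8b (5.59 to 5.81) and Cox4i2 (6.01 to 6.21), so its value is not that of well measured subunits alone. The arrays share the differences between groups and in RNA quality given above, and pairs of genes are not independent.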

How the data were processed

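Log2 signals per probe set were deposited by the authors, who made them with RMA per the submitters' processing notes, in a version not given in the sources used here. Total RNA was amplified before hybridization to 430A2 arrays, per the labels. Of 22690 probe sets, 64 controls, 691 with several symbols and 1555 with none were left out; 20351 of 20380 matched RefSeq. Members, lists and named genes were chosen with earlier results of these data known. Named were a fixed set of subunits and, per comparison and complex, the called members with the largest rise and fall; some are left to counts.

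A separate limma 3.58.1 model was used per day (R 4.3.3; 8 and 10 residual degrees of freedom) over 15 comparisons, with Benjamini-Hochberg adjustment over all genes. The series text calls the replicates biologically independent. The p-values set a group difference against the variance between replicates, which limma moderates and shares over all groups of a day. Replicate numbers were taken to pair arrays where 3 correlations of deviations all exceeded 0.1. Among comparisons with 3 pairs this held for CD8 transient and unstimulated alone (0.50, 0.36 and 0.15), a hint from the data. A replicate block gave 36 calls there beside 38. With 2 pairs, both correlations exceeded 0.1 for CD4 continuous and unstimulated (0.42 and 0.28) and for CD8 and CD4 unstimulated cells (0.45 and 0.40). On simulated data (100 of 12393 genes changed per size) the fit called 0% of changes of 1 log2 unit and 71% of changes of 3 in CD4 cells of day 2, 87% and 99% for CD8 continuous against transient, and 75% and 98% for CD4 continuous against unstimulated. Alternatives were another quantile normalization, median centring, leaving out the lowest 30% of genes, the mean of probe sets, 1 fit of all arrays, only the groups compared, the block, trend and robust moderation, array weights and leaving out arrays. The number of arrays limits precision.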

Additional observations from a re-analysis of the deposited data

Results flagged for a closer look

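The response to transient stimulation differed between CD8 and CD4 cells by limma's interaction contrast in 39 members. Among those named, the CD8 minus CD4 difference of the responses was 4.99 for Ndufs4, 2.51 for Atp5j, 1.94 for Uqcr11, -0.64 for Sdhb, -1.48 for Uqcr10, -1.98 for Cox6b1 and -2.13 for Ndufa12.

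The response to antigen, continuous minus transient, differed between CD8 and CD4 cells in 26 members by the same kind of contrast. The differences were -2.79 for Ndufs4, -1.51 for Atp5j, -1.05 for Cox6c, -1.03 for Uqcr11, -0.91 for Sdhd, 0.85 for Cox6b1, 0.89 for Uqcr10 and 1.51 for Ndufa12. Both contrasts use the CD4 transient arrays, whose actin 3′ minus 5′ difference and B cell marker mean were above those of CD4 unstimulated and continuous cells. The part of these in the differences was not tested.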

How the results depend on the processing

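Counts of members called moved most on day 2 and in the fit of all 28 arrays. The share of all genes called can move with the setting as well. On day 2 it was 8.35% in CD8 and 11.4% in CD4 cells. Without the third unstimulated arrays it was 37.9% and 65.7%. For the other settings it is not given here, so their counts alone do not set the members apart. On day 2, CD8 cells had 7 called, and 32 under quantile normalization, 27 under median centring, 4 without low values, 31 in 1 fit, 45 with array weights and 38 without the third unstimulated arrays. CD4 cells had 6, and 37, 32, 35, 33 and 51 under quantile normalization, median centring, 1 fit, array weights and without those arrays. The day 2 difference of responses had 0, and 1 without them. CD8 against CD4 stimulated cells had 0, and 1 in 1 fit, 1 with only the groups compared, 6 with array weights and 1 without the third arrays. All arrays in 1 fit gave on day 5 8 calls for CD8 and 2 for CD4 transient against unstimulated, 2 for CD8 and 8 for CD4 continuous against transient, 16 for CD8 and 0 for CD4 continuous against unstimulated, 11 for the transient and 0 for the antigen response, and 3, 4 and 0 for CD8 against CD4 unstimulated, transient and continuous cells. Only the groups compared gave 17 for CD8 continuous against transient and 5 for CD8 against CD4 continuous cells, and array weights gave 16 for the last. The causes were not tested. Leaving out each array in turn gave 2 to 6 calls in CD8 and 1 to 24 in CD4 cells of day 2, and 0 for both other day 2 comparisons. On day 5 it gave 27 to 34 for CD8 and 16 to 22 for CD4 transient against unstimulated, 12 to 26 for CD8 and 28 to 34 for CD4 continuous against transient, 38 to 48 for CD8 and 1 to 10 for CD4 continuous against unstimulated, 34 to 42 for the transient and 16 to 26 for the antigen response, and 18 to 28, 27 to 36 and 2 to 8 for CD8 against CD4 unstimulated, transient and continuous cells. A group left with 1 array was assumed to vary like the others. The replicate block gave 36 beside 38 calls for CD8 transient against unstimulated and moved no count by more than 1.5 times; crossing the numbers of the CD4 transient arrays, added after seeing the data, gave 23, as uncrossed. Over 161 named results, 2113 alternatives left the call as it was, 59 added a call and 296 ended one. The mean of probe sets turned Atp5c1 in CD8 continuous against transient cells to -0.609 (0.30 otherwise), and the cause was not tested. The scalings left 0 calls with the opposite sign.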
